A study of Sus scrofa with 21 samples.

Results

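Toll-like receptors (TLR) are the sensors with which cells of the innate immune system recognise microbial lipids, proteins and nucleic acids. All 10 receptors known by the symbols TLR1 to TLR10 were looked up in the gene names of a one-colour Agilent custom pig array, which named them on 18 of its 60305 probes and as 10 of its 14534 gene symbols. Whole blood RNA had been hybridized from 10 DD pigs of 5 litters and from 11 LW pigs of 6 litters, with 1 array per pig. DD, labelled SLAdd, is an inbred minipig line kept homozygous at the swine leukocyte antigen locus, and LW is the Large White breed, used as the control. Pigs of both breeds were 60 days old and received a standard diet without restriction, the labels give no treatment and no sex. All litters but 1 gave 2 siblings, and all pigs were raised on the same farm with the same feeding scheme. DD pigs come from a single closed herd, so breed cannot be told apart from herd of origin.

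The cell surface receptors TLR1, TLR2, TLR4, TLR5, TLR6 and TLR10 mainly bind microbial lipids and proteins. TLR2 pairs with TLR1 or TLR6 to bind lipopeptides, TLR4 binds lipopolysaccharide together with the small protein LY96, and TLR5 binds flagellin. The endosomal receptors bind nucleic acids, with TLR3 for double-stranded RNA, TLR7 and TLR8 for single-stranded RNA and TLR9 for DNA with unmethylated CpG. Except for TLR3, the receptors signal through the adaptor MYD88, while TLR3 and internalised TLR4 use TICAM1, and both routes end in NF-kB and interferon regulatory factors. In blood, TLR2 and TLR4 are best known from monocytes and neutrophils, TLR9 and TLR10 from B cells, and TLR7 and TLR9 from plasmacytoid dendritic cells.

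In the Sscrofa11.1 assembly, TLR10 (chr8:30124895-30134854), TLR1 (chr8:30147600-30155454) and TLR6 (chr8:30159744-30180650) are neighbours on chromosome 8, and TLR2 (chr8:75416257-75428370) lies elsewhere on the same chromosome. TLR7 (chrX:9573178-9576987) lies inside the annotated span of TLR8 (chrX:9551284-9616762). TLR4 is annotated at chr1:258044610-258054641, TLR5 at chr10:19387666-19410024, TLR9 at chr13:34353444-34370990 and TLR3 at chr15:46966262-46977774. In 13 of the 18 probes the accession given for the probe was a pig RefSeq transcript of the named receptor. In the other 5 (1 probe each of TLR1, TLR2, TLR5, TLR6 and TLR7) it was not in that table, so the names of 4 of them rest on the scanner files alone, while that of TLR7 has the same 60 bases as the other TLR7 probe. The exon or untranslated region that a probe lies in was not determined, because no genome sequence was used here.

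All values below are log2 normalized intensities, and a difference is DD minus LW on that scale. Brightness of an array, taken as its 75th percentile of processed signal in log2 units, averaged 7.53 (SD 0.54, n = 10) for DD and 8.22 (SD 0.38, n = 11) for LW. Means of the breeds were close on chip 1 (7.95 and 8.03), and DD was dimmer on chip 2 (7.55 and 8.31) and on chip 3 (7.09 and 8.36). DD_21 was the dimmest array, at 6.56. Markers of the main blood cells were well above background on all 21 arrays (6 of 7 monocyte, 6 of 6 neutrophil, 5 of 6 B cell, 6 of 7 T cell, 6 of 6 erythroid and 4 of 4 platelet genes tested).

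Of the 10 receptors, 9 could be tested, and TLR8 was the only 1 called, with higher values in DD. Across all genes, 2903 of 12338 (23.5%) were called at a limma adjusted p below 0.05, with 11.1% higher and 12.4% lower in DD. TLR2 also had a positive difference, and TLR1, TLR3, TLR4, TLR6, TLR7, TLR9 and TLR10 had negative ones, although that of TLR1 turned to 0.02 with cyclic loess and that of TLR6 to 0.19 and 0.03 after scaling to the 75th percentile or by cyclic loess. That of TLR9 turned to 0.14 when a further probe tied to it by accession was added, and other signs turned without chip 3 or with array brightness as a covariate, as given below. The median difference of the 5 cell surface receptors tested was -0.11 (1 higher, 4 lower, 0 called) and that of the 4 endosomal receptors was -0.19 (1 higher, 3 lower, 1 called), beside -0.07 over all genes. Neither median held across settings. That of the cell surface receptors turned to 0.02 with cyclic loess or without chip 3 and to 0.22 with brightness, and that of the endosomal receptors was -0.02 with the added names or without chip 3 and 0.25 with brightness. At an unadjusted p below 0.05 in limma there were 2 of the 9 receptor genes, TLR8 and TLR9, beside 39.2% of all genes. At the level of single probes, 0 of the 17 kept receptor probes passed a limma adjusted p of 0.05, beside 21.7% of 45228 probes, and 4 had an unadjusted p below 0.05 (those of TLR8 and TLR9 and 1 each of TLR4 and TLR6), beside 37.1% of all probes.

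**Figure D1:**
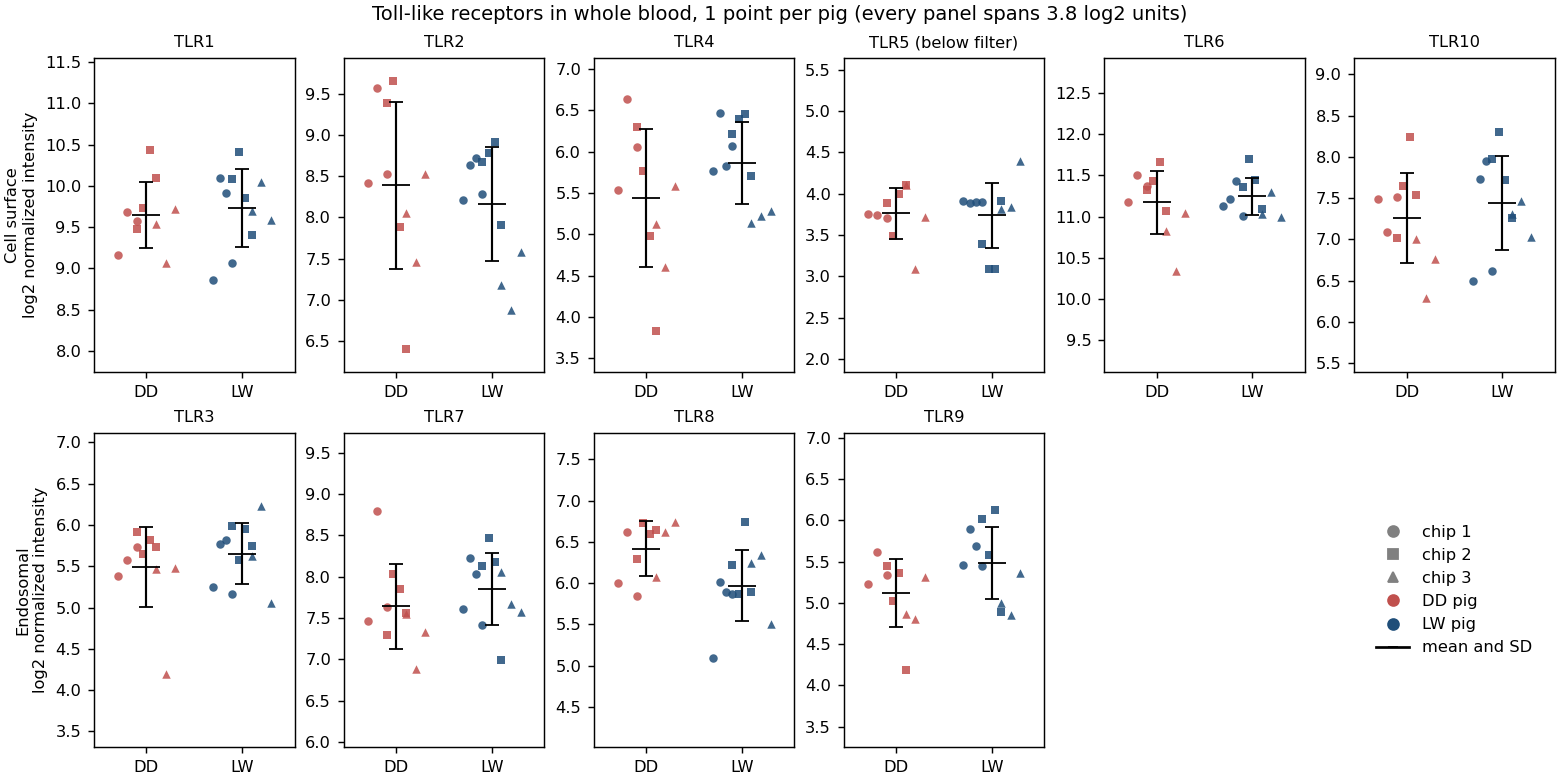
Log2 normalized intensity (y axis) of the 10 receptor genes in each DD and LW pig, with cell surface receptors in the upper row and endosomal receptors in the lower row; markers give the chip and black bars the mean and SD. Breeds overlap in every panel, and in the TLR8 panel 9 of 10 DD pigs lie above the LW median of 5.89.

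TLR8, a receptor for single-stranded RNA, was 1.33-fold higher in DD. Its values ran from 5.84 over a median of 6.61 to 6.74 in DD and from 5.09 over 5.89 to 6.74 in LW. The breeds overlapped, with DD_08 and DD_01 at the low end of DD and LW_14 as high as the highest DD pig, but 9 of 10 DD pigs were above the LW median. The mean was 6.42 ± 0.33 (SD, n = 10) in DD and 5.97 ± 0.43 (SD, n = 11) in LW, and the difference was 0.41 (SE 0.15, limma adjusted p = 0.0454). Chips 1, 2 and 3 gave 0.44, 0.39 and 0.45. The brightness gap between breeds was least on chip 1 and widest on chip 3. Once brightness was fitted beside breed and chip, TLR8 was at 0.50 and was not called (limma adjusted p = 0.233). What part brightness has in the TLR8 difference was not tested further. In blood, more cells of a type and more RNA per cell cannot be told apart, here or for any gene below.

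TLR8 has a single named probe, so its sequence carries the call. The start of it is shown because each of its 3 reading frames meets a stop codon (TAA, TAA and TGA, in capitals) within 30 bases, which means that no frame of the probe is open and only these bases are printed.
TLR8 A_72_P223647, bases 1 to 30: catTAAgTAAtcctcggTGAtgtttggtcg
An unnamed spot elsewhere on the array shares 56 of the 60 bases and is a technical repeat of it. That spot read 6.71 in DD and 6.32 in LW, with a difference of 0.37 (limma adjusted p = 0.0438 over all probes), and its values followed those of the named probe over the 21 pigs with r = 0.93. The named probe alone had a limma adjusted p of 0.0507 over all probes, so TLR8 lies close to the threshold at each level. Its difference stayed positive in all 38 alternatives, some of which reuse the same TLR8 values. Its adjusted p rose above 0.05 in 23 of them, 15 of which left out a single pig.

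TLR9, the receptor for CpG DNA, had the most negative endosomal difference but was not called. Its values ran from 4.19 over 5.28 to 5.61 in DD and from 4.86 over 5.46 to 6.12 in LW. Only 1 DD pig, DD_06, was above the LW median, and DD_16 was the lowest of all. The difference was -0.35 (SE 0.16, limma p = 0.0424, adjusted p = 0.114), and it was -0.23, -0.65 and -0.08 on chips 1, 2 and 3. The probe was well above background in 7 of 10 DD and 10 of 11 LW pigs.
TLR9 A_72_P232812: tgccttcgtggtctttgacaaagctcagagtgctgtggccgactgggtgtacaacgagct
This named probe has open reading frames and is printed because another probe of the array, tied to TLR9 only by a pig RefSeq accession, went the other way. The latter read 13.03 in DD and 12.32 in LW (difference 0.62, limma adjusted p = 0.109), and when both were averaged the TLR9 difference turned to 0.14 (adjusted p = 0.440). No direction is therefore given for TLR9.

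TLR7, the neighbour of TLR8 and likewise a receptor for single-stranded RNA, was read by 2 spots of identical sequence, whose values tracked each other with r = 0.90 over pigs. Its values ran from 6.88 over 7.55 to 8.79 in DD and from 6.99 over 8.03 to 8.47 in LW. DD_06 held the highest value of all, while the other 9 DD pigs were below the LW median. The difference was -0.20 (SE 0.19, limma adjusted p = 0.428), and it was -0.36 without DD_06 (limma adjusted p = 0.0611) and -0.31 without LW_15. It ran from 0.14 on chip 1 to -0.26 on chip 2 and -0.52 on chip 3.

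TLR3, the double-stranded RNA receptor, is read by 2 named probes that overlap. They are printed because they share the 48 bases in capitals and so are no independent readings of the transcript.
TLR3 A_72_P303279: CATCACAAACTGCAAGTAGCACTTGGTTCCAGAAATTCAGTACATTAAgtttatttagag
TLR3 A_72_P471206: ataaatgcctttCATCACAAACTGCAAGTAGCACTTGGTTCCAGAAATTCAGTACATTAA
Both gave a difference of -0.17, and so did the gene (SE 0.16, limma adjusted p = 0.438). Gene values ran from 4.20 over 5.61 to 5.91 in DD and from 5.06 over 5.75 to 6.23 in LW. DD_21 lay far below the other pigs, and without it the difference was -0.04, and -0.07 without LW_22. A further, unnamed spot with the sequence of the first probe followed it with r = 0.62 only.

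**Figure D2:**
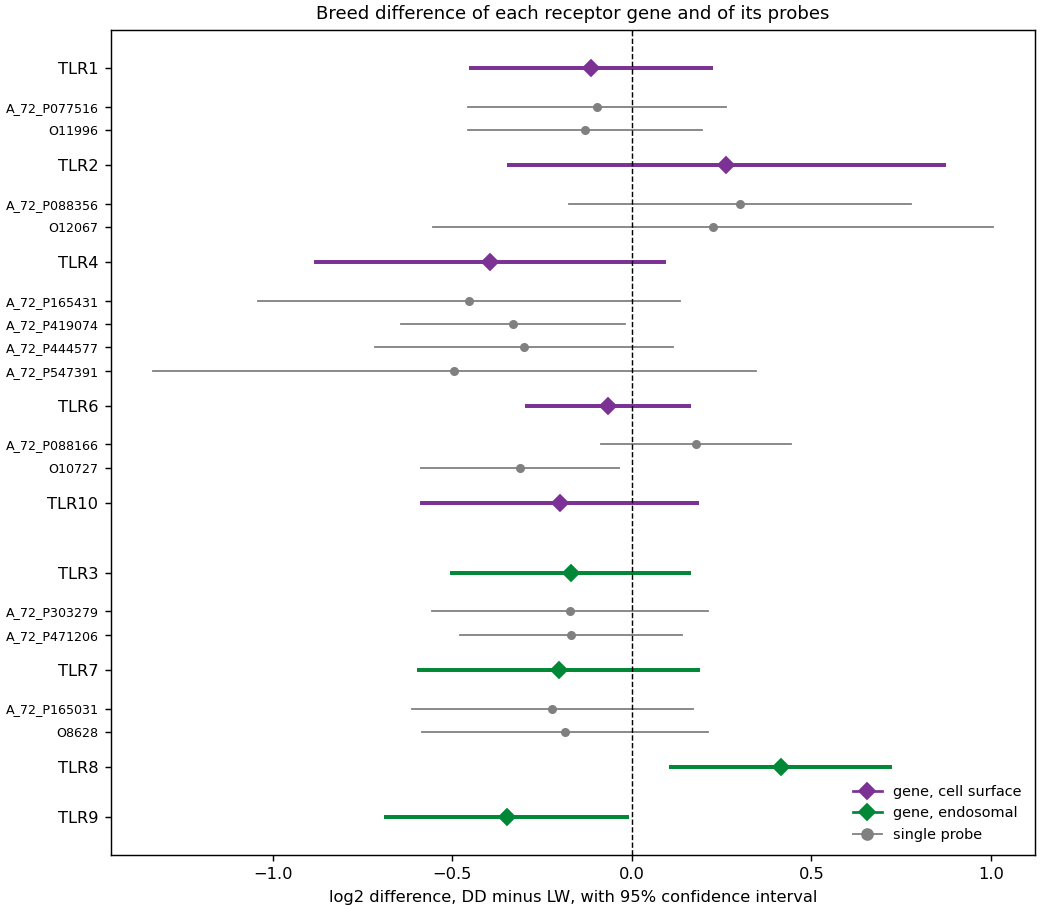
Difference between breeds in log2 units (x axis, DD minus LW) with its 95% confidence interval for each receptor gene tested (diamonds) and for each of its probes where a gene has several (grey points). Only the intervals of TLR8 and TLR9 lie to 1 side of 0 among the genes, and the probes of TLR6 lie on opposite sides.

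TLR4, the lipopolysaccharide receptor, had the most negative difference of all receptors, -0.39 (SE 0.23, limma adjusted p = 0.211). Its values ran from 3.83 over 5.56 to 6.64 in DD and from 5.14 over 5.83 to 6.46 in LW. Of the DD pigs, 4 were below every LW pig and 1, DD_06, was above every LW pig, so DD spread over a wider range on both sides. As the mean of the 4 named probes, the difference lay almost wholly in chip 2, with 0.04 on chip 1, -0.97 on chip 2 and -0.11 on chip 3. DD_16, on chip 2, was the lowest pig, and without it the difference was -0.20. It was -0.11 without chip 2, -0.15 with an offset of 50 in the background correction and -0.16 with brightness as a covariate. All 4 named probes had negative differences, from -0.49 to -0.30, and they differed in how often they were detected. Probe A_72_P165431 was well above background in 8 of 10 DD pigs and A_72_P547391 in 7 of 10. Probe A_72_P444577 was well above background in 1 of 10 DD and 7 of 11 LW pigs, and probe A_72_P419074 in 4 of 10 and 10 of 11. Brighter probes described as TLR4 but without its symbol did not single out chip 2. A_72_P180746 gave -0.06, -0.46 and -0.61 on chips 1, 2 and 3, and A_72_P444572 gave -0.03, -0.52 and -0.53. The probe that varied most between pigs and the probe detected least often are printed, each with an open reading frame.
TLR4 A_72_P547391: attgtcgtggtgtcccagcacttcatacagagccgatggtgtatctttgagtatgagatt
TLR4 A_72_P444577: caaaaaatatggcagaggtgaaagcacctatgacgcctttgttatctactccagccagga
The first of these had an SD of 1.58 in DD and 0.79 in LW, with a difference of -0.49 (SE 0.40).

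TLR2, which binds lipopeptides, had a positive difference of 0.26 (SE 0.29, limma adjusted p = 0.517). Its values ran from 6.41 over 8.47 to 9.65 in DD and from 6.88 over 8.28 to 8.91 in LW. DD again enclosed the LW range, with 3 DD pigs above every LW pig and DD_16 below every LW pig. The SD was 1.01 in DD and 0.69 in LW. Chips gave 0.38, -0.23 and 0.80, and without DD_16 the difference was 0.51. It was 0.12 without DD_11, 0.13 without DD_06 and 0.17 without DD_23. Both probes had positive differences, 0.30 for the first and 0.23 for the second.
TLR2 A_72_P088356: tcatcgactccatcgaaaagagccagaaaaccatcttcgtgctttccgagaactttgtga
TLR2 O12067: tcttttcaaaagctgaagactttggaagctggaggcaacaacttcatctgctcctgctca
These probes are printed because the accession of the second is no pig transcript, and that probe varied more between pigs, with an SD of 1.24 against 0.82 in DD.

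TLR1 and TLR10, neighbours on chromosome 8, overlapped widely between breeds. TLR1, a partner of TLR2, ran from 9.06 over 9.63 to 10.43 in DD and from 8.86 over 9.86 to 10.41 in LW, a difference of -0.11 (SE 0.16; adjusted p = 0.622 in limma). TLR10, a receptor best known from B cells, ran from 6.29 over 7.29 to 8.24 in DD and from 6.50 over 7.47 to 8.31 in LW, with a difference of -0.20 (SE 0.18, limma adjusted p = 0.430). For both genes DD_13 was the highest and DD_21 the lowest DD pig, and LW_12 the highest and LW_02 the lowest LW pig. The 95% interval of the difference was -0.45 to 0.22 for TLR1 and -0.59 to 0.18 for TLR10, so changes of that size are not excluded by these 21 arrays.

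TLR6, the other partner of TLR2, had 2 probes whose differences had opposite signs and whose brightness was far apart. The bright probe O10727 read 16.21 ± 0.47 (SD, n = 10) in DD and 16.53 ± 0.28 (SD, n = 11) in LW, a mean above that of 99.6% of the probes of the array. Its difference was -0.31 (SE 0.13, limma adjusted p = 0.0927). It is printed beside a probe for the mucin MUC13, with which it shares its last 23 bases (in capitals), and which read 18.62 in DD and 18.87 in LW.
TLR6 O10727: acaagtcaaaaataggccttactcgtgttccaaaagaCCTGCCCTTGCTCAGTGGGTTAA
MUC13 A_72_P759409: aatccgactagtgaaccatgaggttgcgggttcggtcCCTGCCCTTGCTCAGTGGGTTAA
TLR6 A_72_P088166: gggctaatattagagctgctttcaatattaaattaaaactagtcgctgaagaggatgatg
The last 14 bases of O10727 were found in the same orientation in 8 other probes, whose median over pigs was 16.13, and in the opposite orientation in 3, whose median was 7.40. The last 12 bases were found in 14 other probes in the same orientation, with a median of 12.91 and the dimmest at the percentile of 8.52 among all probes, so brightness did not go with the shorter run throughout. Which transcripts O10727 reads was not tested. The other named probe, A_72_P088166, shares no run of 16 bases with a probe of another gene and read 6.13 ± 0.40 in DD and 5.95 ± 0.24 in LW. Its difference was 0.18 (SE 0.13, limma adjusted p = 0.316 over all probes). With the bright probe left out, a choice made after seeing the data, the gene had the same 0.18 (limma adjusted p = 0.288 over all genes). With both probes averaged it was -0.07 (SE 0.11, limma adjusted p = 0.670). An unnamed spot of the same sequence as A_72_P088166 followed it with r = 0.04 only. That spot read 8.33 in DD_21, where the named spot read 5.40.

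TLR5, the flagellin receptor, had the only receptor probe removed by the filter on dim probes. It was well above background in 0 of 10 DD and 0 of 11 LW pigs, and its mean was 3.76 in DD and 3.74 in LW.
TLR5 A_72_P180506: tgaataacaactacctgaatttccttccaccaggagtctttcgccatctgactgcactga
The probe is printed because TLR5 has no other named probe on the array, and its accession was not in the pig RefSeq table.

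The chips gave different pictures for most receptors. TLR1, TLR6, TLR10, TLR3 and TLR7 each had their most negative difference on chip 3, between -0.34 for TLR1 and -0.59 for TLR3. On the same chip the brightness gap between breeds was widest. After removal of breed and chip means, the values of these receptors correlated with array brightness over the 21 pigs, with r = 0.79 for TLR6, 0.77 for TLR7, 0.64 for TLR10, 0.61 for TLR3 and 0.53 for TLR1, whereas r was 0.16 for TLR8 and at most 0.26 for TLR2, TLR4 and TLR9. With brightness as a further covariate the differences were 0.20 for TLR1, 0.24 for TLR10, 0.18 for TLR3, 0.22 for TLR6 and 0.32 for TLR7, all with the sign turned and none called, while TLR8 was at 0.50 (limma adjusted p = 0.233), TLR2 at 0.55, TLR4 at -0.16 and TLR9 at -0.22. The part of brightness in these differences was not tested further. In these r values and those below, TLR6 is the mean of its 2 named probes, and neither probe was taken alone. TLR9 is its named probe alone there.

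**Figure D3:**
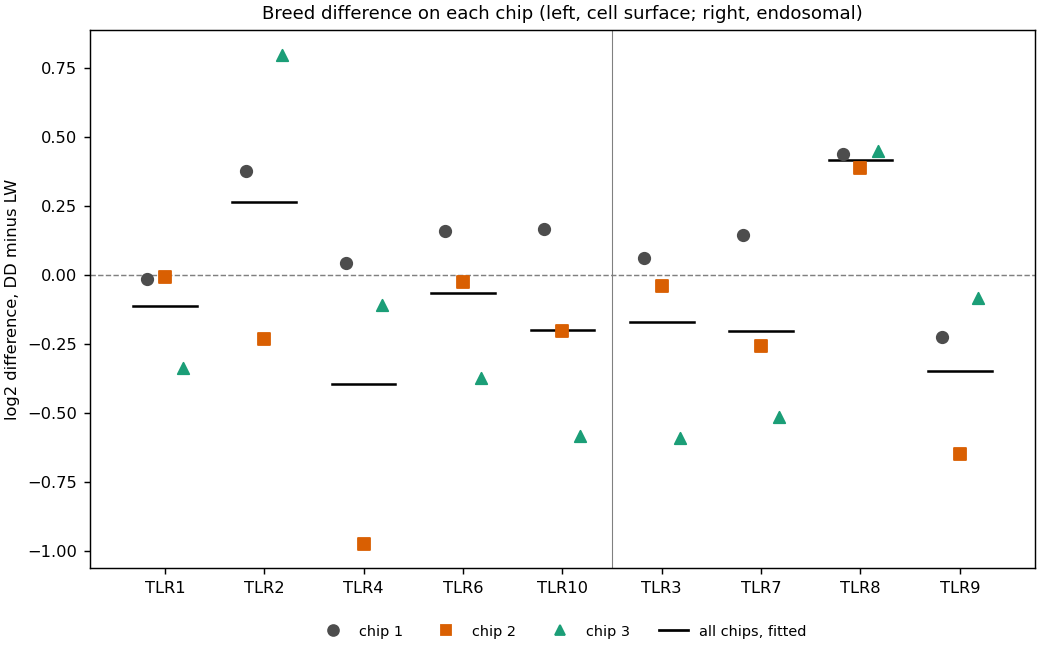
Difference between breeds in log2 units (y axis, DD minus LW) of each tested receptor on each of the 3 chips (markers), with the fitted difference over all chips as a black line. TLR8 has 3 nearly equal values (0.44, 0.39 and 0.45), and TLR4, as the mean of its named probes, has its most negative difference on chip 2 (-0.97).

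Over pigs, the receptors fell into groups that varied together within breed and chip. TLR2 and TLR4 had r = 0.91 over the 21 pigs (Spearman 0.84), and 0.87 without DD_11 and DD_16. TLR9, read by its named probe alone, followed TLR4 with r = 0.77 (Spearman 0.68, and 0.60 without DD_06 and DD_16). It followed TLR2 with r = 0.75 (Spearman 0.65, and 0.71 without DD_11 and DD_16). The other probe tied to TLR9, whose breed difference had the opposite sign, did not enter these values. TLR1 and TLR10 had r = 0.86 (Spearman 0.79), and 0.81 without LW_02 and LW_15, but neither followed TLR2, with r = -0.04 and -0.02. TLR6, as the mean of 2 probes whose breed differences had opposite signs, had r = 0.69 with TLR10 and r = 0.69 with TLR7. The relation of TLR3 to TLR6 fell from r = 0.66 to 0.35 without DD_21 and LW_22. TLR8 stood most apart, and its highest r with another receptor was 0.42, with TLR7. These are descriptions: pigs share litters, chips and array brightness, and genes read in the same blood share its cell makeup.

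**Figure D4:**
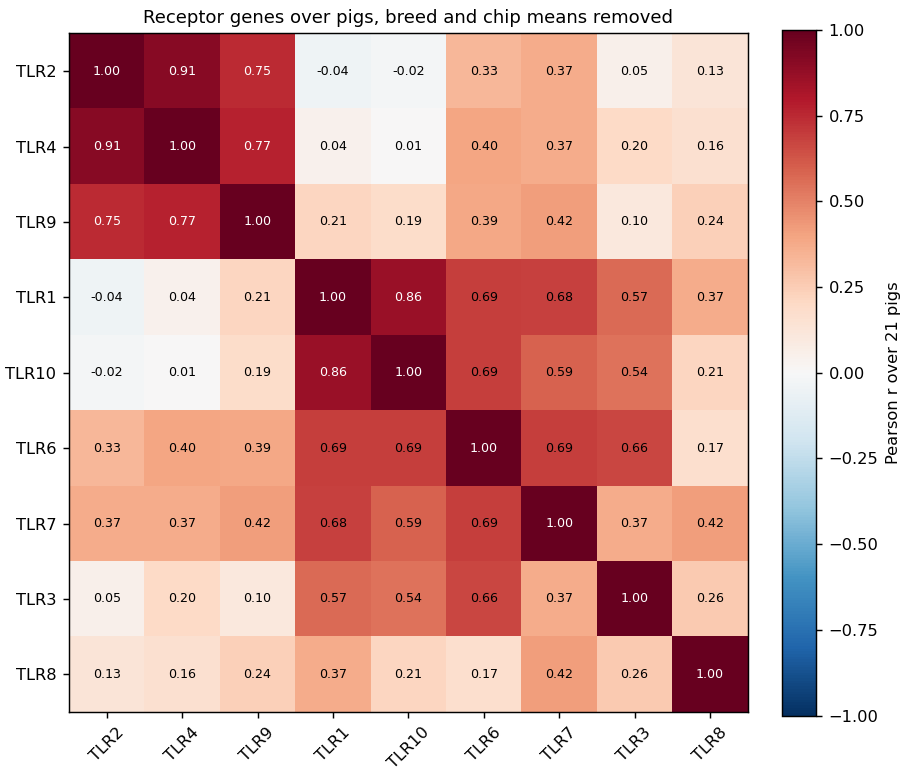
Pearson r between receptor genes over 21 pigs after removal of breed and chip means (colour scale from -1 to 1, value printed in each cell). TLR2, TLR4 and TLR9 (its named probe alone) form 1 block with r from 0.75 to 0.91, and TLR1 and TLR10 have r = 0.86.

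Over all 12338 genes, those with the highest r to each receptor were listed, and with so many genes searched a high r is a description only. Most like TLR2 was FLOT1 (r = 0.96), a membrane raft protein, and most like TLR4 were C10ORF54 (r = 0.94) and the amino acid transporter SLC7A7 (r = 0.91). TLR1 and TLR10 shared BLNK, an adaptor of the B cell receptor, among their closest genes (r = 0.93 and 0.94). TLR1 was closest to N4BP2L1 (r = 0.95) and TLR10 to C1ORF170 (r = 0.95). TLR9 was closest to GRN (r = 0.90), a lysosomal growth factor precursor, and TLR7 to BTG1 (r = 0.89). TLR8 had the loosest set, with the complement protease C1R (r = 0.84), SYCP3 (r = 0.83) and the inflammatory caspase CASP1 (r = 0.76). TLR3 and TLR6 were closest to LOC100154167 (r = 0.89) and ZBTB5 (r = 0.92).

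Markers of blood cells moved with several receptors. The mean of 7 monocyte markers followed TLR4 with r = 0.79 and TLR2 with r = 0.76 (0.61 without DD_06 and DD_16, and 0.52 without DD_11 and DD_16). The same receptors also followed T cell markers (r = 0.59 for TLR4 and 0.71 for TLR2, the latter 0.57 without DD_11 and DD_16), neutrophil markers (0.61 and 0.58) and B cell markers (0.46 and 0.53). TLR9, read by its named probe, followed monocyte and B cell markers with r = 0.67 and 0.60. These fell to 0.31 and 0.39 without DD_16 and LW_15. The mean of 6 B cell markers followed TLR10 with r = 0.68 (0.59 without LW_02 and LW_07) and TLR1 with r = 0.60 (0.47 without LW_02 and LW_15). It also followed TLR7 with r = 0.57 (0.61 without DD_06 and LW_15) and TLR6 with r = 0.55 (0.43 without DD_21 and LW_15). Of 5 plasmacytoid dendritic cell markers tested, 3 were well above background on all 21 arrays, and IRF8 and SPIB were not named. The mean of these markers had r = 0.04 with TLR7 and 0.06 with TLR9. For TLR9 the Spearman value was 0.21, and r was 0.30 without DD_16 and LW_15. With a list this short and partly dim, a low r does not decide whether TLR7 or TLR9 varies with these cells. The r of this marker mean was -0.40 with TLR2 and -0.33 with TLR4, and 0.43 with TLR1 and 0.34 with TLR10. Erythroid and platelet markers went against TLR6 (r = -0.77 and -0.73), TLR7 (r = -0.67 and -0.66), TLR10 (r = -0.63 and -0.70) and TLR1 (r = -0.58 and -0.66). TLR8 followed the mean of 16 interferon-stimulated genes with r = 0.61 (Spearman 0.61, and 0.58 without LW_02 and LW_24), and monocyte markers with r = 0.41. Interferon-stimulated genes had r = 0.51 with TLR7 (0.14 without DD_06 and LW_15). Their r was 0.41 with TLR4 (0.34 without DD_06 and DD_16) and 0.37 with TLR2 (0.46 without DD_11 and DD_16).

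Between breeds, these lists did not move as 1. Their counts stand beside 23.5% of all genes called (11.1% higher and 12.4% lower in DD), and beside 7140 of 12338 genes with a negative difference. With so few genes in each list, several counts are near those shares. Of the 7 monocyte markers tested, CSF1R was called higher (0.63) and CD163 lower (-0.72), with a median of 0.08 and a list mean of 7.27 to 8.66 in DD and 7.61 to 8.54 in LW. Neutrophil markers had 0 of 6 called and list means of 8.70 to 10.67 in DD and 9.24 to 10.76 in LW. B cell markers were 6 of 6 higher with 0 called (8.17 to 9.56 in DD, 8.11 to 9.89 in LW), and plasmacytoid dendritic cell markers 4 of 5 higher with 0 called (6.54 to 7.05 in DD, 6.42 to 7.22 in LW). T cell markers were 7 of 7 lower with 2 called, CD3D (-0.58) and CD3G (-0.64), and list means of 8.09 to 9.41 in DD and 8.49 to 9.54 in LW. Erythroid markers had 3 of 6 called, all higher (11.99 to 13.48 in DD, 11.73 to 13.07 in LW), and platelet markers 1 of 4, the chemokine PPBP, lower (8.53 to 10.32 in DD, 8.96 to 10.33 in LW). Interferon-stimulated genes were 16 of 16 higher with 9 called and a median of 0.66 (9.74 to 12.04 in DD, 9.10 to 10.21 in LW). The part of these lists in the TLR8 difference was not tested.

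Beyond the receptors, 60 genes of the pathway were listed by role, of which 54 were named on the array and 51 were tested. They split evenly, with 26 positive and 25 negative differences and a median of 0.01, and 10 were called (6 higher, 4 lower), beside the 23.5% of all genes given above. When arrays were scaled to the 75th percentile or by cyclic loess, 8 of 11 and 9 of 12 called genes were higher. UNC93B1, which carries the endosomal receptors to their compartment, was not among the names and has no value here, nor do SARM1, REL, SIGIRR, TNFAIP3 and CXCL8. IL6, IL12B and IFNB1 were removed as dim. The counts by role below stand beside the same 23.5% and beside 7140 of 12338 genes with a negative difference. With so few genes in each role, several counts are near those shares.

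Among the 6 genes of co-receptors and ligand delivery, 3 were called, LBP and CD36 higher and LY96 lower, beside 23.5% of all genes. LY96, the partner that holds lipopolysaccharide for TLR4, fell in DD. Its values ran from 7.39 over 8.34 to 8.90 in DD and from 8.32 over 9.10 to 9.72 in LW, with 4 DD pigs below every LW pig. The difference was -0.78 (SE 0.14, limma adjusted p = 0.00117), and -0.72, -0.63 and -1.05 on the chips, so LW was 1.72-fold higher. LBP, the plasma protein that delivers lipopolysaccharide, rose, from 5.28 over 6.09 to 7.50 in DD and from 4.81 over 5.38 to 6.62 in LW (difference 0.66, SE 0.16, limma adjusted p = 0.0101). CD36, a scavenger receptor that serves TLR2, rose too. It ran from 4.20 over 5.62 to 6.20 in DD and from 4.41 over 4.82 to 5.00 in LW, with 9 DD pigs above every LW pig and 1 below (difference 0.78, SE 0.17, limma adjusted p = 0.00495). Its probe A_72_P547299 had a difference of 0.14 only (limma adjusted p = 0.736 over all probes), while its other probes ran from 0.64 to 1.30. CD14, which passes lipopolysaccharide to TLR4, had a difference of 0.13 (SE 0.28, limma adjusted p = 0.744) and within-chip values from -0.14 to 0.78.

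HSP90B1, the chaperone that folds most receptors, fell in DD, with -0.60 (SE 0.14, limma adjusted p = 0.00741). It ran from 8.15 over 8.61 to 9.62 in DD and from 8.54 over 9.20 to 9.91 in LW, with 4 DD pigs below every LW pig. Its probe O7995 had a difference of 0.08 (limma adjusted p = 0.668 over all probes), while its other probes ran from -0.73 to -0.59. Among the 4 adaptors, TICAM2, which links TLR4 to TICAM1, was the only 1 called, with 0.38 (SE 0.11, limma adjusted p = 0.0253) and values from 5.48 over 5.74 to 6.26 in DD and 5.03 over 5.39 to 5.94 in LW. Its size depends on a dim probe. Of its 2 probes, A_72_P055891 had a difference of 0.79 (limma adjusted p = 0.000951 over all probes) and A_72_P070921, just above the filter on dim probes, one of -0.04. The dim probe fell below the filter without DD_06, DD_16 or LW_22, and the gene difference was then 0.74, 0.78 and 0.87. TICAM1, the adaptor of TLR3, had a difference of 0.32 (SE 0.13, limma adjusted p = 0.0683), and MYD88 had 0.13 (SE 0.12, limma adjusted p = 0.440).

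Of 15 kinases and ubiquitin ligases, IRAK2, a kinase downstream of MYD88, was called with -0.34 (SE 0.10, limma adjusted p = 0.0231), and 10 of the 15 had negative differences. It ran from 6.22 over 6.57 to 7.13 in DD and from 6.44 over 6.93 to 7.27 in LW. Of 7 transcription factors, 6 had positive differences and IRF7 was called. IRF7, the factor behind type I interferon from TLR7 and TLR9 and itself interferon-stimulated, rose by 0.57 (SE 0.14, limma adjusted p = 0.0114), and ran from 11.00 over 11.43 to 12.06 in DD and from 10.38 over 10.96 to 11.57 in LW. IRF3 and IRF5 had differences of 0.12 (limma adjusted p = 0.520) and 0.20 (limma adjusted p = 0.365). None of the 7 inhibitors tested was called in limma at an adjusted p of 0.05, and their differences ran from -0.33 to 0.40.

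Of the 10 targets tested, 3 were called, near the 23.5% over all genes. CXCL10, a chemokine induced by interferon, had the most positive difference of the pathway, 1.87 (SE 0.51, limma adjusted p = 0.0175), or 3.66-fold. It ran from 8.99 over 10.17 to 13.51 in DD and from 7.20 over 8.98 to 10.05 in LW, with 5 DD pigs above every LW pig and 2.06, 1.76 and 1.77 on the chips. TNF, the inflammatory cytokine, rose by 0.42 (SE 0.11, limma adjusted p = 0.0121), from 8.42 over 8.57 to 9.67 in DD and from 8.00 over 8.42 to 8.60 in LW. Its probe A_72_P538206 had a difference of 0.0094 only (limma adjusted p = 0.970 over all probes), while its other probes ran from 0.50 to 0.65. The costimulatory ligand CD80 fell by 0.48 (SE 0.12, limma adjusted p = 0.0141), and 6 DD pigs were below every LW pig, from 5.13 over 5.84 to 6.59 in DD and from 5.87 over 6.41 to 6.94 in LW. The other 7 targets had negative differences in 6 cases, among them IL1B (-0.39), PTGS2 (-0.45) and CCL4 (-0.43), with none called in limma.

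Called genes also differed between chips 1, 2 and 3. TNF gave 0.15, 0.35 and 0.81, CD36 0.42, 0.77 and 1.22, and IRF7 0.32, 0.62 and 0.80. CD80 gave -0.32, -0.42 and -0.72, HSP90B1 -0.27, -0.79 and -0.71, and IRAK2 -0.20, -0.48 and -0.32. TICAM2 gave 0.58, 0.36 and 0.18, and LBP 0.86, 0.54 and 0.61. Without the arrays of chip 3, 0 of the 51 pathway genes were called, beside 1.14% of all genes. With brightness as a covariate TICAM2 alone was called (limma adjusted p = 0.0240), and CXCL10 and LY96 had differences of 2.35 and -0.66 (limma adjusted p = 0.0792 and 0.0676). CD36, HSP90B1, CD80, TNF and IRAK2 then had smaller differences of 0.36, -0.29, -0.28, 0.27 and -0.17. The calls of TICAM2 and IRAK2 were also lost without LW_18 (limma adjusted p = 0.0721 and 0.0558), where 8.04% of all genes were called, and that of CD80 with the brightest probe of each gene (limma adjusted p = 0.119). IRAK2 was lost as well with cyclic loess (limma adjusted p = 0.110), with scaling to the 75th percentile (0.0522) and without chip 2 (0.141), IRF7 without chip 2 (0.0697) and TICAM2 without chip 1 (0.147). With no chip term LBP, TNF, CD80, TICAM2 and IRAK2 lost their calls (limma adjusted p from 0.0594 to 0.107). None of the 10 called genes changed sign in the 38 alternatives.

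**Figure D5:**
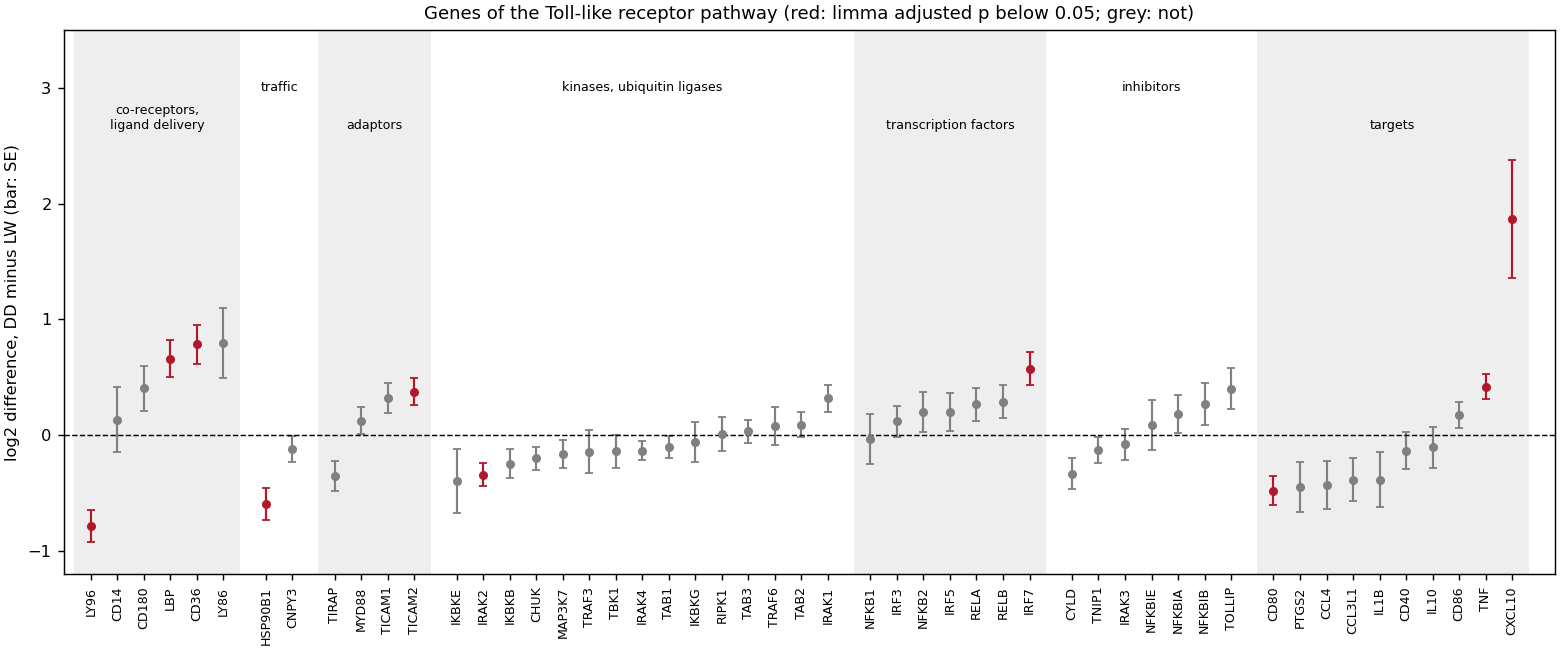
Difference between breeds in log2 units (y axis, DD minus LW) with its SE for the 51 pathway genes tested, grouped by role; red marks a limma adjusted p below 0.05. CXCL10 (1.87) and LY96 (-0.78) mark the ends of the range.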

How the data were processed

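Whole blood RNA of the pigs was read on Agilent arrays, 1 per pig, on 3 chips. Per the labels, Agilent Feature Extraction 10.7.3.1 was used. The authors processed 24 arrays, removed 3 as outliers, and deposited 1 intensity file per array, not normalized between arrays, and a log2 matrix, background corrected with normexp and quantile normalized. The log2 matrix deposited by the authors gave the values used here, and the intensity values deposited served to recompute them (r from 0.9984 to 0.9994). The deposited files also hold a flag for a signal well above background. The number of arrays limits the precision.

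Members and lists were chosen with earlier results of these data known. The 25% of probes with the lowest mean were removed, leaving 45228. Kept probes with the same symbol in the scanner files were averaged (12338 genes). The limma model held breed and chip as fixed terms, and litter (the sow) as the block of a random effect (consensus correlation -0.10), with Benjamini-Hochberg adjustment over all genes, or all probes, and a threshold of 0.05. That correlation was negative, and the block did not make the fit more cautious. Without the block 17.4% of all genes were called, fewer than the 23.5% with it, and TLR8 had a limma adjusted p of 0.0569. Chip and sow came from the study's sample list. Where siblings share a sow, p-values measure the spread between these pigs. Named with values are all receptors and their probes, the called genes of the pathway list, and MYD88, CD14, LY96, TICAM1, TICAM2, IRF3, IRF5 and IRF7 whatever their p. Likeness names up to 3 genes with the highest r per receptor. Gene lists were described by counts and medians, without a set test. On simulated data with 12338 genes, of which 200 were changed, limma called 35 of 100 changes of 0.5 and 87 of 100 changes of 1 on the log2 scale, with 9 false calls, and 0 calls when nothing was changed. Far fewer genes were changed there than the 23.5% called in the data. The simulated noise was independent for each gene and pig, with no litter effect and no shared brightness. These counts therefore cannot give the share of changes found, or of false calls, in the real data.

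Alternatives were values recomputed with normexp and quantile, an offset of 50, scaling to the 75th percentile, cyclic loess, no filter, a filter on probes well above background on at least 6 arrays, the probe with the highest mean, extended names, litter means, a model without the sow or without the chip, leaving out each chip, array brightness as a covariate, trend and robust fitting, and each pig left out. A further alternative, chosen after seeing the data, left out the bright TLR6 probe. Tools were limma 3.58.1 and statmod 1.5.0 in R 4.3.3, and matplotlib in Python.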

Additional observations from a re-analysis of the deposited data

Results flagged for a closer look

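Among the 20 groups of 10 DD values tested for a sample far from the others (10 receptors and the 10 called pathway genes), 2 passed Dixon's critical value, and chance alone flags about 1 in 20. TLR3 read 4.20 in DD_21, far below the other DD pigs, and this pig also had the dimmest array. LY96 read 7.39 in DD_01, the lowest of the DD pigs. Both values were kept, and LW, with 11 pigs, was not tested in this way.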

How the results depend on the processing

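No paired analysis was possible because the animal numbers of DD and LW do not overlap. TLR8 kept a positive difference in all 38 alternatives, between 0.23 (offset of 50) and 0.54 (scaling to the 75th percentile). Some could hardly change it, because TLR8 has a single named probe. The filter settings, the probe with the highest mean, trend and robust fitting and the left-out TLR6 probe used the same TLR8 values. They gave 0.41 or 0.42. The number of receptor genes called was 0 in place of 1 with no filter (TLR8 adjusted p = 0.0598), litter means (0.0741), no sow block (0.0569), no chip term (0.0996), chip 1, 2 or 3 left out (0.0927, 0.135 and 0.377) and brightness as a covariate (0.233). Leaving out single pigs gave 0 or 1 receptor genes, and TLR8 stayed below 0.05 only without DD_08, DD_10, DD_19, LW_04, LW_07 or LW_14 (range 0.0298 to 0.0864). Named receptor probes called were 1, that of TLR8, with an offset of 50, with scaling to the 75th percentile, with cyclic loess and with the filter on probes well above background, and 0 to 2 without single pigs, with 1 probe each of TLR4 and TLR6 called without DD_06. Pathway genes called were 10, but 5 with no chip term, 0 without chip 3, 1 (TICAM2) with brightness, and 8 (without LW_18, with 8.04% of all genes called) to 16 (without DD_06, with 37.8%) with single pigs left out. Without chip 3, only 1.14% of all genes were called, with brightness 2.11% and with no chip term 6.49%. Without single pigs the median of the cell surface receptors ran from -0.18 to -0.05 and that of the endosomal receptors from -0.28 to -0.09, and brightness moved them to 0.22 and 0.25. Cyclic loess and leaving out chip 3 turned the cell surface median to 0.02, and the endosomal one was -0.02 with extended names.

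Signs turned for receptors that were not called. With chip 3 left out, TLR1 was at 0.042, TLR10 at 0.023, TLR2 at -0.054, TLR3 at 0.033 and TLR6 at 0.059. With brightness, TLR1 was at 0.20, TLR10 at 0.24, TLR3 at 0.18, TLR6 at 0.22 and TLR7 at 0.32. With cyclic loess, TLR1 was at 0.019 and TLR6 at 0.028. TLR6 was also at 0.19 with scaling to the 75th percentile, at 0.13 with extended names, at 0.18 without its bright probe and at 0.00039 without DD_21 (from -0.11 over single pigs left out), and TLR9 was at 0.14 with extended names. The cause of these changes was not tested, except that fewer arrays enter where a chip is left out. TLR4 kept its sign in all 38 alternatives, but was at -0.11 with chip 2 left out. TLR5 could be fitted only without the filter.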

Other observations

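The array carries 3 further probes that its descriptions tie to a Toll-like receptor but that have no receptor symbol. Probe A_72_P163051, described by its likeness to a short part of mouse TLR2, read 4.59 in DD and 5.19 in LW (difference -0.61, limma adjusted p = 0.0353 over all probes), and it was well above background in 2 of 10 DD and 7 of 11 LW pigs. Probes A_72_P180746 and A_72_P444572, both described as TLR4, had differences of -0.38 and -0.37 (limma adjusted p = 0.178 and 0.190) and were well above background in all 21 pigs. An unnamed probe tied to TLR2 by its accession read 11.14 in DD and 10.89 in LW (difference 0.23, limma adjusted p = 0.320).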
